A study of Mus musculus with 3 samples.

Results

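Laminins and nidogen were followed in dorsal skin of C57BL/6 mice at 3 ages through 9 genes, Lama2, Lama3, Lama4, Lama5, Lamb1, Lamb2, Lamb3, Lamc1 and Nid1, out of the 27998 genes listed for each library. The 9 were taken by symbol, and all 9 were found. Each age, neonatal, 3 weeks and 2 months, was 1 droplet library of cells released from minced biopsies with collagenase D and DNase, and the number of animals behind a library is not stated. No age carried a treatment or a genetic change. The comparisons ask which cell classes held each chain and how the levels stood at each age.

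Laminins are secreted trimers of 1 alpha, 1 beta and 1 gamma chain that form a sheet on the cell surface and give basement membranes their first scaffold. The alpha chain carries the sites bound by integrins and dystroglycan, and nidogen links the laminin sheet to the collagen IV network. In skin, laminin-332, which contains the Lama3 and Lamb3 chains, holds the epidermis to the dermis at hemidesmosomes, while laminins with Lama2, Lama4 or Lama5 surround nerves, vessels, muscle and fat cells.

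Cells were placed in classes by counting how many markers of a list each barcode held at 2 or more unique molecular identifiers (UMIs), and a barcode that passed the gates of more than 1 class was put in none of them. No laminin or nidogen gene is in a gate. The keratinocyte gate held 278, 1358 and 1719 barcodes in skin of neonatal, 3 week and 2 month mice, the endothelial gate 34, 76 and 35, the mural gate 172, 254 and 207, the Schwann gate 100, 226 and 404, and the fibroblast gate 5307, 5279 and 4338. In each library every marker of a class's own list was detected in that class, which the gates themselves make likely. Detection alone does not tell the classes apart, since 2 month fibroblasts also held UMIs of all 12 keratinocyte markers. Class names are those of the gates and rest on these transcripts alone. Levels are given as CPM, the UMIs of a gene per 1000000 UMIs summed over a class in a library, with 95% Poisson intervals that cover counting error only. The kit counts molecules at their 3' ends, so CPM was not scaled by transcript length. With 1 library per age, no difference between ages was tested, and age cannot be told apart from library. Any pair of libraries shared 27 to 35 barcode sequences. The libraries held 84086755, 113874172 and 98432611 UMIs in neonatal, 3 week and 2 month skin, and of the barcodes kept 19.3%, 5.53% and 10.6% passed no gate.

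The beta chains carried the age pattern described further on, so their promoters are shown here. RefSeq windows from 250 bases before to 50 after the transcription start (GRCm38.p6) were found for 6 of the 9 genes. Capitals mark the GC box, GGGCGG or its reverse complement CCGCCC. For Lamb3 the first of 2 listed windows is shown.
Lamb1 at chr12:31265043-31265342 on the + strand: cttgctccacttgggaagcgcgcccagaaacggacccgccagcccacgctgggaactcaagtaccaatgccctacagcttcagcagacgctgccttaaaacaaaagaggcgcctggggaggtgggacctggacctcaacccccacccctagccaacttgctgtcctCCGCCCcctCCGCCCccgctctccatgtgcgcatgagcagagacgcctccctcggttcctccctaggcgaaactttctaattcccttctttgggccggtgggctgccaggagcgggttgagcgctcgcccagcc
Lamb2 at chr9:108479612-108479911 on the + strand: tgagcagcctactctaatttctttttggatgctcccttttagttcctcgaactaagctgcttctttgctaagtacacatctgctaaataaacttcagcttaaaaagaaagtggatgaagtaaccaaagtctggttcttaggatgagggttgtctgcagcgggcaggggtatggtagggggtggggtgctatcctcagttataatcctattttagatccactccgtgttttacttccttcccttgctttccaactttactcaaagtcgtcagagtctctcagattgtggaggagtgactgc
Lamb3 at chr1:193301744-193302043 on the + strand: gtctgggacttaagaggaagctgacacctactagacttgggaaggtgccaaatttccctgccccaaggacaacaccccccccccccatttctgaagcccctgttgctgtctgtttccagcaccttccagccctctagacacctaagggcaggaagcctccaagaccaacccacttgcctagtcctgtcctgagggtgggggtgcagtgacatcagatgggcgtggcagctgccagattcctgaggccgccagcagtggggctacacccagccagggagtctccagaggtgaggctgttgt

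The Lamb1 window held 2 GC boxes, starting at -84 and -75 from the transcription start, with no overlap between them. Neither the Lamb2 nor the Lamb3 window held any. GC boxes were found in 35.7% of the 32851 windows of the table. The motifs CCAAT or ATTGG (37.4% of windows), TATAAA or TTTATA (13.6%) and AP-1, TGACTCA or TGAGTCA (5.20%), were searched as well. Of the 3 windows shown, that of Lamb1 held 1 CCAAT box and no other match was found. A match is a string of letters, not a shown binding site. GC content was 63.7% in the Lamb1 window, 44.0% in that of Lamb2 and 59.3% in that of Lamb3.

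Fibroblasts held most UMIs of 6 of the 9 genes at every age, Lama2, Lama4, Lamb1, Lamb2, Lamc1 and Nid1, with shares of 68.4% to 90.3% of a gene's UMIs in a library. Fibroblasts were 67.1%, 59.3% and 46.5% of kept barcodes at the neonatal, 3 week and 2 month ages, and a held share depends on how many cells of a class were released as well as on their level. Lama3 and Lamb3 lay mostly in keratinocytes, with 74.1%, 69.6% and 58.1% of Lama3 UMIs and 62.6%, 73.4% and 61.2% of Lamb3 UMIs in the neonatal, 3 week and 2 month libraries. A further 17.6% to 29.5% of the UMIs of these genes lay in barcodes that passed several gates. Lama5 was split, with 44.3%, 32.4% and 36.9% in keratinocytes and 18.2%, 26.8% and 23.6% in the far fewer mural cells. In the neonatal library, barcodes of no class held 18.4% of Lama2 and 19.2% of Nid1 UMIs, and 279 and 218 of these 1528 barcodes passed the dermal papilla and dermal sheath sub-gates.

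**Figure D1:**
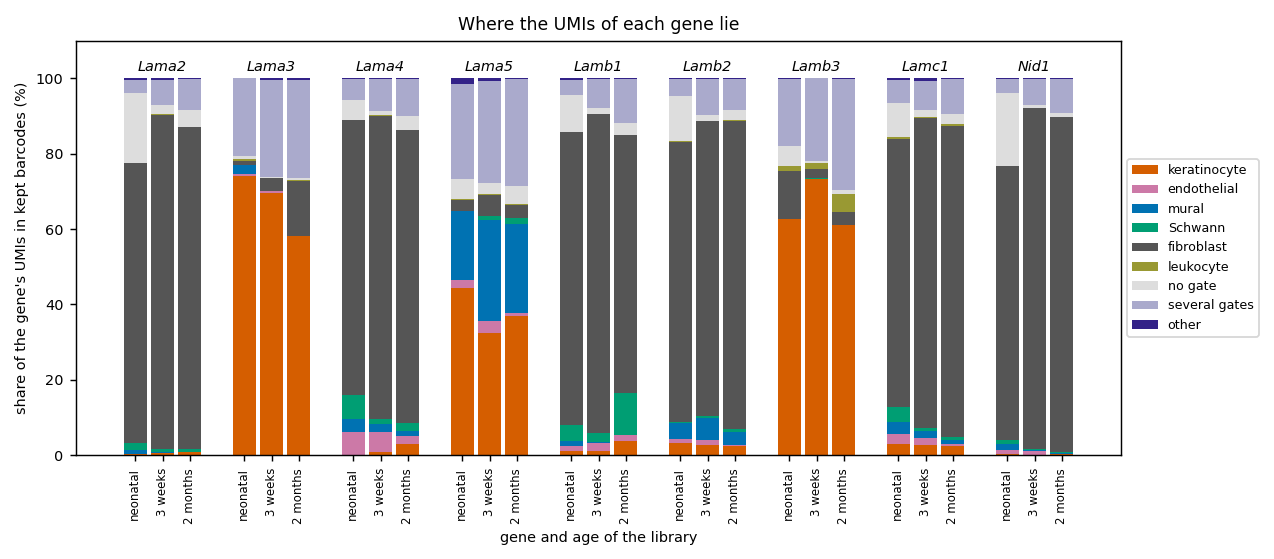
Stacked bars give the share of each gene's UMIs (vertical axis, %) that lay in each class, in barcodes of no gate or in barcodes of several gates, for each gene and age along the horizontal axis. The keratinocyte part fills most of the Lama3 and Lamb3 bars, at 58.1% to 74.1%, and the fibroblast part most of the Lama2 and Nid1 bars.

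Differences between classes were tested with edgeR's quasi-likelihood test on 15 summed profiles, 5 classes in 3 libraries with the library as a term, each class against the mean of the other 4. A gene was called at a Benjamini-Hochberg adjusted p under 0.05 over 11115 genes and a difference of at least 2-fold. Nothing says how many animals a library holds, so these p-values measure the spread between libraries of different ages. Keratinocytes had 3 of 9 members called higher, where 16.5% of all genes tested were, and 6 called lower, where 18.3% were. Endothelial cells had 2 higher (background 13.1%) and 1 lower (10%). Mural cells had 2 higher (12.4%) and 0 lower (7.32%), with 0 lower at an unadjusted p under 0.05 in edgeR as well, and Lamb1 alone lower in DESeq2 (adjusted p = 0.0464). Schwann cells had 3 higher (12.1%) and 1 lower (9.73%), and fibroblasts 4 higher (15.1%) and 1 lower (4.93%). The member median log2 difference was -2.91 in keratinocytes, beside 0.06 over all genes tested, and 1.05 in fibroblasts, beside 0.09.

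**Figure D2:**
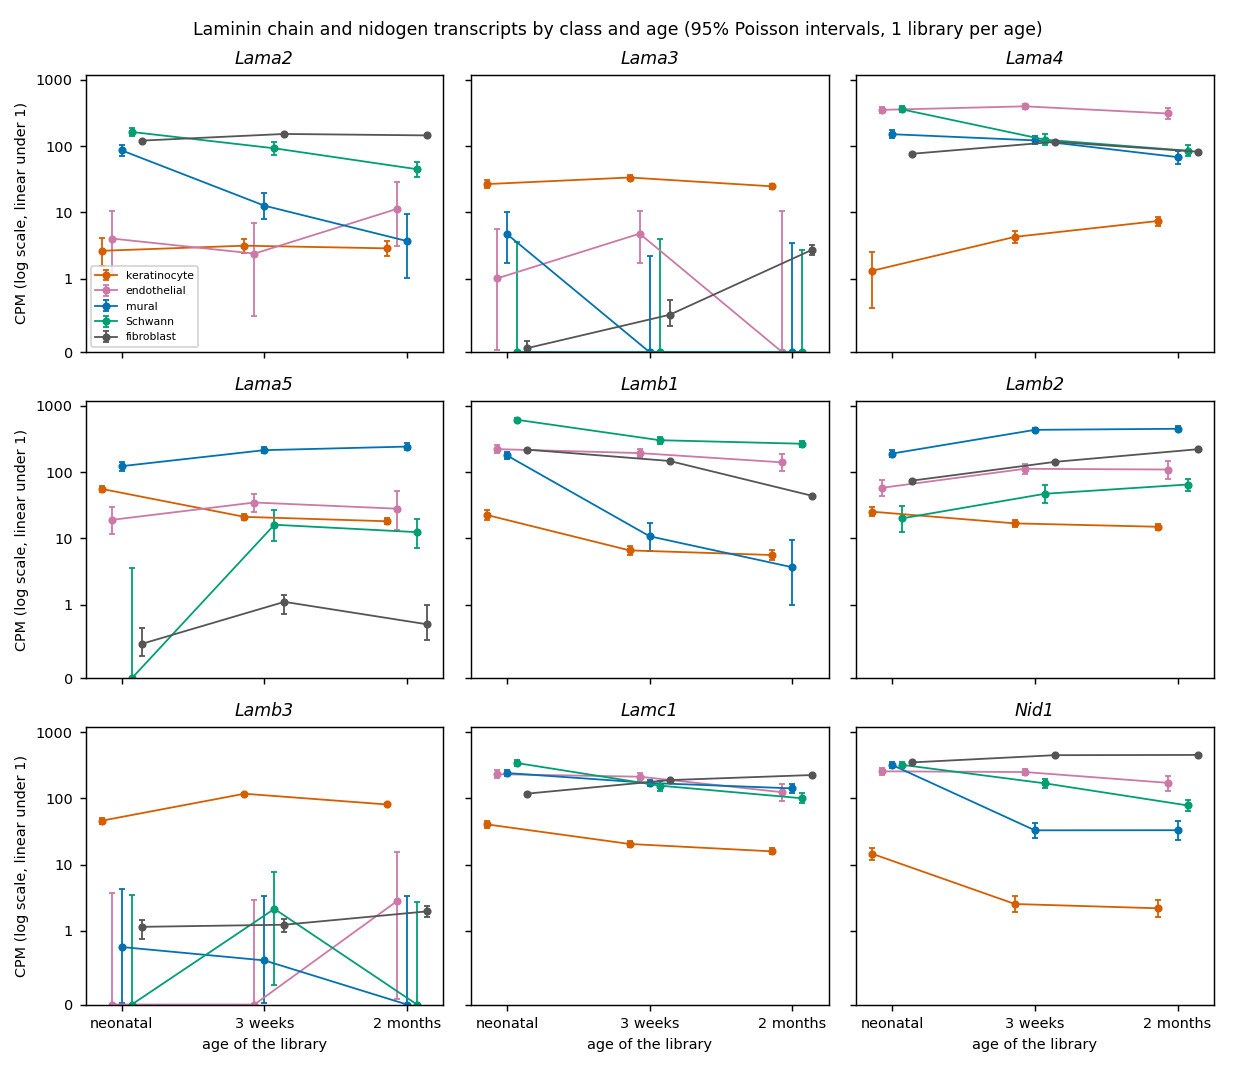
Each panel plots the CPM of 1 gene (vertical axis, log scale that is linear under 1) against the age of the library, with 1 line per class and bars for 95% Poisson intervals. Lama3 and Lamb3 stand at 24.7 CPM or more in keratinocytes alone, and Lama5 is highest in mural cells. In the fibroblast line Lamb1 is lower and Lamb2 higher at each later age. In the mural line Lamb1 is lower and Lamb2 higher at both later ages than in the neonatal library. The mural 3 week and 2 month intervals overlap for both genes.

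Among the alpha chains, Lama3 marked keratinocytes. It is the alpha chain of laminin-332 and lies on chromosome 18. Its level was 26.7, 33.5 and 24.7 CPM in neonatal, 3 week and 2 month keratinocytes, and 0 UMIs were found in Schwann cells of any library, which allows up to 2.88, 3.22 and 2.20 CPM. Endothelial and mural cells held at most 6 Lama3 UMIs in any library. Keratinocytes were called higher (adjusted p = 0.00113 in edgeR's quasi-likelihood test). The fitted fold is not given because the Schwann profiles were empty. Fibroblasts held 0.0540, 0.508 and 2.73 CPM, or 3, 34 and 141 UMIs. Of the 141 UMIs at 2 months, 96 lay in the 65 fibroblasts of the dermal papilla sub-gate, at 41.8 CPM, beside 10 UMIs (8.94 CPM) at 3 weeks and 0 in 150 neonatal cells of that sub-gate. The dermal papilla, marked here by Corin, Crabp1, Rspo3, Notum and Sox18, is the mesenchyme at the base of the hair follicle.

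Lama5, an alpha chain of epidermal and vessel laminins (chromosome 2, 180176373 to 180225904), was highest in mural cells. There it stood at 123 CPM (105 to 144), 215 (194 to 239) and 244 (215 to 275) with age. Mural cells exceeded the mean of the other classes by 4.42 ± 0.44 on the log2 scale (adjusted p = 1.74e-05, edgeR). Here and below, the value after ± is the log2 difference divided by the square root of the test's F statistic. It approximates a standard error, which the test itself does not give. Keratinocytes were also called higher, by 1.35 ± 0.50 (adjusted p = 0.0395), with 55.97, 21.2 and 18.2 CPM. That call was lost without any 1 library, at 0.21 without the neonatal one (adjusted p = 0.285), 1.98 without the 3 week one (adjusted p = 0.0725) and 1.93 without the 2 month one (adjusted p = 0.0598), and also with 1 marker fewer in each gate (adjusted p = 0.145) or without a library term (adjusted p = 0.0576). Fibroblasts stayed at or under 1.11 CPM in each library and were called lower, at -5.23 ± 0.70 (adjusted p = 0.000157). Schwann cells held 0, 15 and 17 Lama5 UMIs, with 12.5 CPM at 2 months. With the neonatal 0 set to the floor of 3 counts, the ratio of 2 months over neonatal was 4.33-fold. Its log2 interval was 0.32 to 4.53. In the myelinating sub-gate, described further on, that interval was -0.45 to 3.77 and spanned no change.

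Lama4, an alpha chain of vessel, nerve and fat laminins (chromosome 10, 38965515 to 39110188), stood at 352, 397 and 309.8 CPM in endothelial cells. They were the highest class at 3 weeks and 2 months. The endothelial excess was 2.49 ± 0.39 on the log2 scale (adjusted p = 0.000513, edgeR). Schwann cells had 357 CPM in the neonatal library, inside the endothelial interval, and 125 and 85.0 CPM later. Their excess of 1.28 ± 0.42 was called (adjusted p = 0.0376), and it was not called without the neonatal library (0.53, adjusted p = 0.143) or without the 3 week library (adjusted p = 0.164). Mural cells had 151, 122 and 68.1 CPM and fibroblasts 76.5, 116 and 82.1 CPM, which put both below the endothelial values at every age. Keratinocytes had 1.31, 4.26 and 7.38 CPM and were called lower, at -5.04 ± 0.62 (adjusted p = 4.32e-05).

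Lama2, an alpha chain of nerve and muscle laminins (chromosome 10, 26981285 to 27617191), was shared by fibroblasts and Schwann cells. Fibroblasts had 121, 152 and 145 CPM, an excess of 3.84 ± 0.50 on the log2 scale (adjusted p = 0.000136, edgeR). Schwann cells had 163, 92.4 and 44.7 CPM, an excess of 2.38 ± 0.53 (adjusted p = 0.00511) that was not called without the 3 week library (2.14, adjusted p = 0.126). The order of the classes differed between libraries, with Schwann cells above fibroblasts in the neonatal library and below them in both later libraries, outside the counting intervals. Mural cells had 85.9, 12.6 and 3.68 CPM. Endothelial cells held only 3 or 4 Lama2 UMIs in each library and were called lower, at -3.19 ± 0.91 (adjusted p = 0.0190), a call lost without the 3 week library (adjusted p = 0.216).

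The make-up of the alpha chains sets the classes side by side. Lama4 gave 93.6%, 90.4% and 88.7% of the alpha chain UMIs of endothelial cells, and Lama2 gave 61.1%, 56.5% and 62.8% in fibroblasts, with Lama4 most of the rest. In Schwann cells Lama4 gave 68.6%, 53.5% and 59.8%. Mural cells held a mixture of Lama4 (41.3%), Lama5 (33.8%) and Lama2 (23.6%) in the neonatal library, with 61.6% Lama5 at 3 weeks and 77.3% at 2 months. In their smooth muscle sub-gate alone, described further on, Lama5 differed little, with 238, 216 and 245 CPM, and neonatal pericytes had 5.83 CPM of Lama5 and 266 CPM of Lama4. Keratinocytes held 64.6% Lama5 and 30.8% Lama3 in the neonatal library. Later Lama3 led, with 53.9% at 3 weeks and 46.4% at 2 months.

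**Figure D3:**
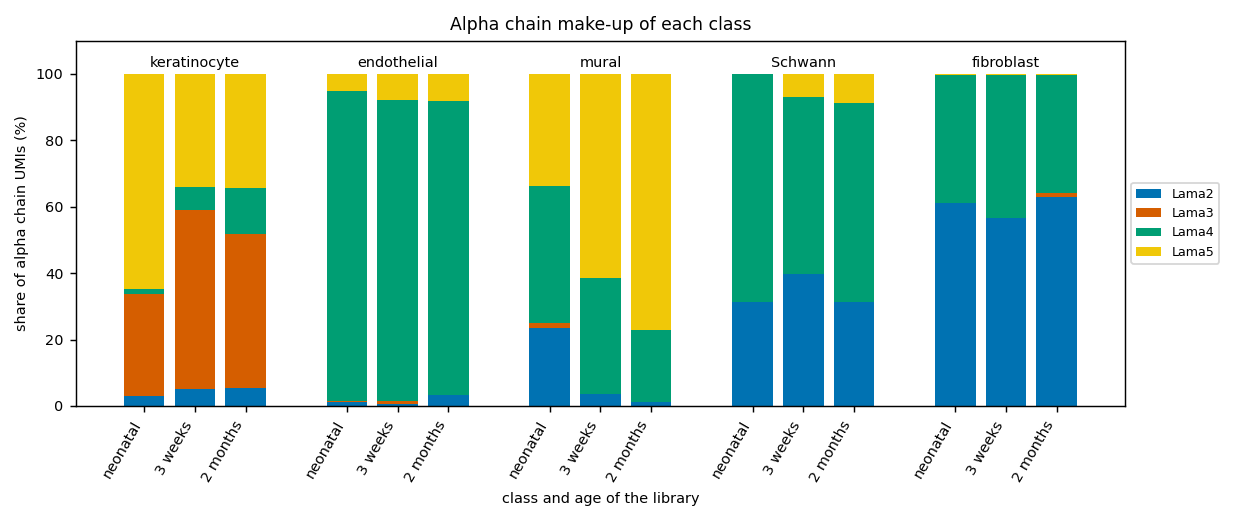
Stacked bars give the share of Lama2, Lama3, Lama4 and Lama5 in the alpha chain UMIs of a class (vertical axis, %), for 5 classes and 3 ages along the horizontal axis. Lama4 fills the endothelial bars to at least 88.7%, and the Lama5 part of the mural bars is 33.8% in the neonatal library and 77.3% at 2 months.

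Among the beta chains, Lamb1 and Lamb2 are alternatives in the same kind of trimer, and Lamb1 is the chain known from early basement membranes while Lamb2 is known from muscle, synapses and vessel walls. Lamb1 lies on chromosome 12 (31265146 to 31329644) and Lamb2 on chromosome 9 (108479847 to 108490530). In fibroblasts Lamb1 stood at 219 CPM (216 to 223) in the neonatal library, 148 (145 to 151) at 3 weeks and 44.0 (42.2 to 45.9) at 2 months. Lamb2 ran the other way over the same libraries, with 74.7 CPM (72.5 to 77.0), 143 (140 to 146) and 222 (218 to 226). Within each gene the intervals of the 3 ages did not overlap, and at 3 weeks the interval of Lamb1 overlapped that of Lamb2. The log2 ratio of 2 months over neonatal was -2.32 for Lamb1 (-2.38 to -2.25) and 1.57 for Lamb2 (1.52 to 1.62). Over all genes measured in fibroblasts the median of that ratio was -0.28, and with TMM scaling, which takes out such a shift, the values were -2.04 and 1.85.

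Lamb1 thus made up 74.6%, 50.8% and 16.5% of the summed Lamb1 and Lamb2 UMIs of fibroblasts. This share does not depend on scaling. In each of the 5 fibroblast sub-gates it was lower at 2 months than in the neonatal library, without overlap of the intervals. In the interstitial progenitor sub-gate (Dpp4, Pi16, Cd55 and Sema3c) the share was 65.4%, 48.4% and 15.8%, in the papillary sub-gate (Lrig1, Apcdd1, Axin2 and Ntn1) 75.5%, 56.4% and 15.6%, and in cells of no sub-gate 74.3%, 49.7% and 15.3%. The hair follicle sub-gates had higher shares at 2 months, with 74.5%, 74.4% and 45.5% in the dermal papilla sub-gate and 73.0%, 65.1% and 38.1% (26.1 to 51.2) in the dermal sheath sub-gate, the last from 63 UMIs. The preadipocyte sub-gate (Pparg, Fabp4, Cd36 and Lpl) had 80.9%, 62.6% and 25.0% (10.7 to 44.9), with only 28 UMIs at 2 months. That interval overlaps those of the dermal papilla and dermal sheath sub-gates.

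The other classes also held a lower Lamb1 share at 2 months than in the neonatal library, from different starting points. Schwann cells had 96.8%, 86.5% and 80.5%, endothelial cells 79.3%, 63.3% and 56.2% (45.3 to 66.7), and keratinocytes 47.1%, 28.1% and 27.2%. Mural cells had 48.3%, 2.42% and 0.806%, with 4 Lamb1 UMIs beside 492 of Lamb2 at 2 months. The mural gate held different cells at the 3 ages. Its pericyte sub-gate (Rgs5, Kcnj8, Abcc9 and Higd1b) held 75, 3 and 2 barcodes and its smooth muscle sub-gate (Myh11, Actg2, Cnn1 and Acta2), which does not tell vessel from hair muscle, 74, 246 and 194. Within the smooth muscle sub-gate the Lamb1 share was 22.3%, 2.05% and 0.833%, with 65.3, 9.14 and 3.87 CPM of Lamb1 and 227, 436 and 461 CPM of Lamb2.

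**Figure D4:**
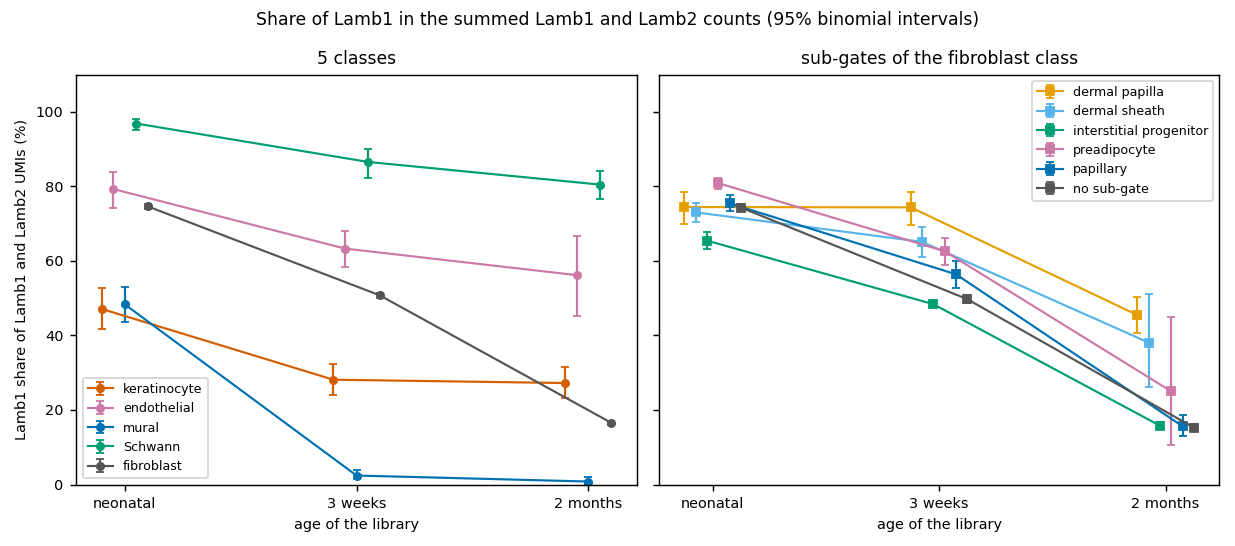
The share of Lamb1 in the Lamb1 and Lamb2 UMIs (vertical axis, %) is plotted against the age of the library for the 5 classes on the left and for the fibroblast sub-gates on the right, with 95% binomial intervals. Each line is lower at 2 months than in the neonatal library, and the fibroblast line passes 74.6%, 50.8% and 16.5%.

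Between classes, Lamb1 was highest in Schwann cells, with 619, 304 and 269 CPM and an excess of 2.68 ± 0.48 on the log2 scale (adjusted p = 0.00141, edgeR). Lamb2 was highest in mural cells, with 191, 436 and 453 CPM and an excess of 2.58 ± 0.29 (adjusted p = 4.34e-05). Fibroblasts were called higher for Lamb2 by 1.26 ± 0.30 (adjusted p = 0.00756), a call lost without the 3 week library (adjusted p = 0.142) or the 2 month library (adjusted p = 0.151) and, at 0.93, without TMM scaling. Schwann cells were called lower for Lamb2, at -1.39 ± 0.37 (adjusted p = 0.0138), with 20.2, 47.3 and 65.2 CPM, and not without the 3 week library (adjusted p = 0.133). Lamb1 did not pass in fibroblasts (1.05 ± 0.50, adjusted p = 0.146), whose neonatal value was 4.98-fold the 2 month one. It passed there without the neonatal library, at 1.48 (adjusted p = 0.00140), and without that library it was also called higher in endothelial cells (2.10, adjusted p = 0.000512, against 1.40 and 0.0589 with all 3) and lower in mural cells (-3.33, adjusted p = 0.000310). Keratinocytes were called lower for both, Lamb1 at -3.79 ± 0.69 (adjusted p = 0.000754) and Lamb2 at -2.42 ± 0.39 (adjusted p = 0.000315).

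Lamb3, the beta chain of laminin-332 (chromosome 1, 193294353 to 193343878), was nearly limited to keratinocytes among the 5 classes. Keratinocytes had 46.1, 118 and 80.9 CPM, against at most 2.82 CPM in each of the other 4 classes. The excess was 6.96 ± 0.40 on the log2 scale (adjusted p = 1.03e-07, edgeR). Endothelial, mural and Schwann cells each held at most 2 Lamb3 UMIs in any library, so the size of that excess rests on nearly empty profiles. Leukocyte-gated cells, which are outside the 5 classes, had 3.12, 19.8 and 42.4 CPM. After thinning to 1500 UMIs per cell, Lamb3 was seen in 9.71%, 15.4% and 11.4% of keratinocytes and in 0.833%, 5.77% and 6.38% of leukocytes. Before thinning the shares were 29.5%, 53.1% and 36.2% of keratinocytes and 2.42%, 8.56% and 12.4% of leukocytes, at median depths of 17811, 11766 and 10603 UMIs in keratinocytes and 8445.5, 3446 and 2791 in leukocytes.

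Within keratinocytes Lama3, Lamb3 and Lama5 were higher in the basal sub-gate than in the other cells of the class. The basal sub-gate (Krt5, Krt14 and Krt15) held 95, 747 and 755 barcodes, and the suprabasal one (Krt1, Krt10 and Krtdap), cells that have left the basement membrane, 97, 186 and 211. Krt5, Krt14, Krt15, Krt1 and Krt10, and Krt17 and Krt79 of the upper follicle sub-gate, were also in the gate, and the laminins were not. Lamb3 stood at 122, 185 and 164 CPM in basal cells, against 0.746, 7.81 and 4.54 CPM in suprabasal cells. Lama3 stood at 61.9, 51.1 and 41.9 CPM in basal cells and 4.10, 9.55 and 11.2 CPM in suprabasal cells. Lama5 in basal cells was 154, 34.1 and 31.8 CPM, and suprabasal cells had at most 3.02 CPM. The basal sub-gate held 119 of 183, 558 of 684 and 409 of 561 Lama3 UMIs, 235 of 316, 2021 of 2402 and 1603 of 1842 Lamb3 UMIs, and 296 of 384, 372 of 433 and 311 of 414 Lama5 UMIs of the class. Most of the remaining UMIs of the 3 genes lay in cells of no sub-gate, 79, 230 and 294 barcodes, with 36.7, 93.3 and 49.2 CPM of Lamb3, 24.6, 24.1 and 17.5 CPM of Lama3 and 38.0, 12.6 and 16.4 CPM of Lama5. The upper follicle sub-gate (Krt79, Krt17 and Cst6), 7, 195 and 459 barcodes, had at most 7.18 CPM of any of the 3. In basal cells alone the 2 month over neonatal log2 ratio was -0.56 for Lama3, 0.43 for Lamb3 and -2.27 for Lama5. Lamb3 was thus higher and Lama3 lower at 2 months.

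**Figure D5:**
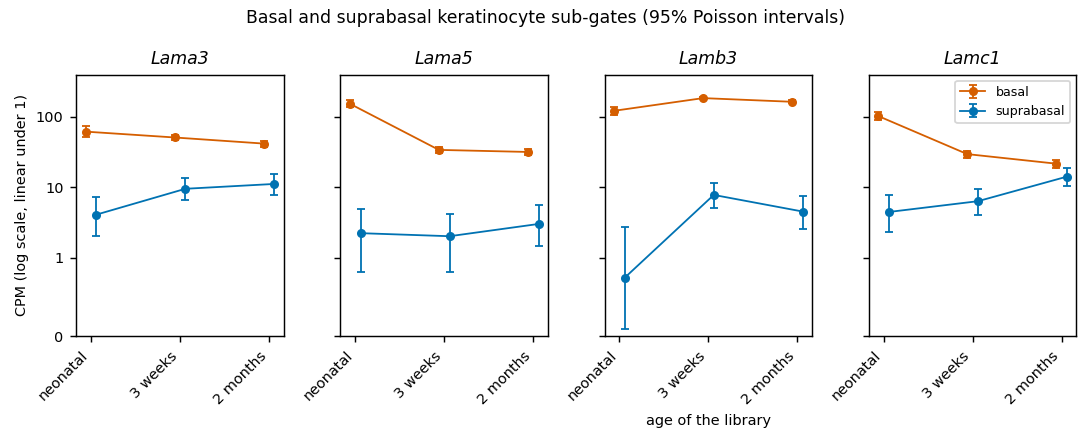
CPM of 4 chains (vertical axis, log scale that is linear under 1) in the basal and suprabasal sub-gates of the keratinocyte class is plotted by age of the library, with 95% Poisson intervals. Basal points lie above suprabasal points in all 4 panels, though the Lamc1 intervals overlap slightly at 2 months (21.7 CPM in basal and 14.2 CPM in suprabasal cells), with Lamb3 at 122 to 185 CPM in basal cells and at most 7.81 CPM in suprabasal cells.

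Lamc1, the gamma chain of most laminins (chromosome 1, 153218922 to 153332786), was found at 15.9 CPM or more in each of the 5 classes and 3 libraries. It had 118, 189 and 225 CPM in fibroblasts, 342, 156 and 100.4 CPM in Schwann cells, 241, 171 and 142 CPM in mural cells and 232, 213 and 124 CPM in endothelial cells. Fibroblasts were thus the lowest of these 4 classes in the neonatal library and the highest at 2 months. Keratinocytes had 40.5, 20.5 and 15.9 CPM and were called lower, at -2.91 ± 0.40 on the log2 scale (adjusted p = 9.91e-05, edgeR). Fibroblasts were called higher by 1.17 ± 0.31 (adjusted p = 0.0144), and were not without the 3 week library (adjusted p = 0.240) or the 2 month library (0.47, adjusted p = 0.478) or without TMM scaling (0.80, adjusted p = 0.0531) or a library term (adjusted p = 0.0556).

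Nid1, nidogen-1 (chromosome 13, 13437602 to 13512275), was highest in fibroblasts at every age, with 349.5, 449 and 453 CPM and an excess of 3.34 ± 0.48 on the log2 scale (adjusted p = 0.000244, edgeR). In the neonatal library it was nearly as high in Schwann cells (320.5 CPM), mural cells (319 CPM) and endothelial cells (256 CPM), and it was at 14.6 CPM in keratinocytes. At 3 weeks and 2 months Nid1 stood lower in Schwann cells (169 and 78.4 CPM), mural cells (33.0 and 33.1 CPM) and keratinocytes (2.55 and 2.20 CPM). Endothelial cells had 249.9 CPM at 3 weeks, a log2 ratio to neonatal of -0.04 (-0.28 to 0.21). They had 172 CPM at 2 months. The endothelial excess of 1.42 ± 0.50 was called (adjusted p = 0.0468) and was lost without the 3 week library (adjusted p = 0.333) or the 2 month library (adjusted p = 0.210), without a library term (adjusted p = 0.205), without the filter on low counts (adjusted p = 0.0521) and with 1 more marker in each gate (adjusted p = 0.0785). Among fibroblasts Nid1 was concentrated in the interstitial progenitor sub-gate, with 724, 628 and 924 CPM, against 252, 306 and 184 CPM in cells of no sub-gate. The 2 month over neonatal log2 ratio was 0.37 in the whole class and -0.46 in cells of no sub-gate, so its direction depended on the cells taken. Without the neonatal library Nid1 was also called higher in Schwann cells (1.08, adjusted p = 0.00410) and lower in mural cells (-1.18, adjusted p = 0.00715). Nid2, the second nidogen, had 520.1, 148 and 43.2 CPM in Schwann cells and 144, 92.8 and 47.9 CPM in endothelial cells. Schwann cells were higher in the neonatal and 3 week libraries, and the intervals overlapped at 2 months. In Schwann cells Nid1 accounted for 38.1%, 53.2% and 64.5% of the nidogen UMIs.

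Members were set against the whole transcriptome of each class. The 2 month library differed from the neonatal one by 2-fold or more in most measured members of keratinocytes, mural cells and Schwann cells. A member counted as measured when either library of the pair reached 10 CPM. In Schwann cells at 2 months against neonatal, 2 of 7 measured members were at least 2-fold higher, beside 14.5% of all measured genes, and 5 were lower, beside 19.4%. The 5 were Lama2, Lama4, Lamb1, Lamc1 and Nid1, and the 2 were Lamb2 and Lama5, the last with 0 neonatal and 17 later UMIs. In mural cells 1 of 7 was higher (background 17.7%), Lamb2, and 4 lower (13.1%), Lama2, Lama4, Lamb1 and Nid1. The pericyte sub-gate gave 75 of the neonatal mural barcodes and 2 of those at 2 months. For Lama4 the log2 ratio was -1.15 in the whole class and 0.79 (0.11 to 1.53) in the smooth muscle sub-gate alone. In that sub-gate Lamb1 (-4.07), Nid1 (-2.91) and Lamb2 (1.02) had the direction of the whole class, and Lama2 rested on 2 UMIs at 2 months. In keratinocytes 0 of 7 were higher (9.81%) and 4 lower (7.78%), namely Lama5, Lamb1, Lamc1 and Nid1. In the basal sub-gate alone these 4 were also lower, at log2 ratios of -2.27, -2.40, -2.25 and -2.68. Lamb2 had a log2 ratio of -1.18 in basal cells, against -0.75 in the whole class. Lama4, under 10 CPM in the whole class, had 2.06 (0.90 to 3.53) in basal cells, from 6 and 127 UMIs. In fibroblasts 1 of 6 was higher (11.0%), Lamb2, and 1 lower (16.5%), Lamb1. In endothelial cells 1 of 7 was higher (14.4%), Lama2 with 4 UMIs in each library, whose interval spans no change, and 0 were lower (11.1%). Fibroblast markers, 7 of 7 detected, summed to 7648, 4389 and 2761 CPM in Schwann cells and 2684, 2301 and 1074 CPM in mural cells, none at 0, beside 52595, 166369 and 165419 CPM in fibroblasts. Their part in the age values was not tested. The Schwann gate also held different cells at the 3 ages. Its own markers summed to 10646, 84917 and 70598 CPM, and its non-myelinating sub-gate held 19, 12 and 1 barcodes. The part of these differences in the Schwann age values was not tested. Within the myelinating Schwann sub-gate (61, 196 and 392 barcodes) Lamb1 was 677, 324 and 278 CPM and Lama4 343, 117 and 85.5 CPM.

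The endothelial class rested on few cells and mostly on lymphatic ones. Its lymphatic sub-gate (Prox1, Lyve1, Ccl21a, Mmrn1 and Pdpn) held 20, 61 and 22 barcodes and its blood sub-gate (Flt1, Emcn, Plvap and Cd34) 14, 12 and 8. Lama4 was 376, 433 and 358 CPM in the lymphatic sub-gate and 238, 113 and 100.6 CPM in the blood sub-gate, the last 2 from 14 and 7 UMIs. The Lamb1 share was 83.5%, 66.7% and 65.3% in lymphatic cells and 46.9%, 17.4% and 16.7% in blood vessel cells, the last from 12 UMIs.

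At a fixed depth of 1500 UMIs per cell, Lamb1 was seen in 25.5%, 19.1% and 7.68% of fibroblasts and Lamb2 in 9.81%, 18.7% and 29.4%. Before thinning Lamb1 was seen in 77.3%, 71.2% and 33.4% and Lamb2 in 46.2%, 71.7% and 84.1%, at median depths of 9499, 12359 and 10805 UMIs. In leukocytes, which should hold little laminin, the thinned shares were 0.417%, 0.398% and 0.330% for Lamb1 and 0.833%, 0.398% and 0.440% for Lamb2. At most 60 shallower cells of a library were left out in either class. In fibroblasts Lamb1 and Lamb2 were seen together in 2.26%, 3.74% and 2.19% of cells, beside 2.502%, 3.57% and 2.26% for the product of their shares.

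The partners of laminin in the basement membrane were counted from a list of 24 genes, of which 21 were tested. Fibroblasts had 11 higher (15.1% of all genes tested) and 5 lower (4.93%), with Smoc2 at 114, 229.5 and 461 CPM and Fbln1, a fibulin, at 176, 225 and 232 CPM. Mural cells had 8 higher (12.4%) and 3 lower (7.32%), with Tinagl1 at 881, 686 and 1099 CPM and the integrin ligand Npnt at 3.13, 195 and 59.8 CPM. Keratinocytes had 5 higher (16.5%) and 10 lower (18.3%). Their largest excess was in Col17a1, the hemidesmosomal collagen XVII, with 147, 637 and 487 CPM, and among the lower ones were Col4a1 and Col4a2, the main collagen IV chains. Schwann cells had 6 higher (12.1%) and 5 lower (9.73%), and endothelial cells 4 higher (13.1%) and 3 lower (10%). The median log2 difference of the list was 1.15 in fibroblasts (0.09 over all genes tested), 0.42 in mural cells (-0.08), -1.12 in keratinocytes (0.06), 0.22 in Schwann cells (-0.06) and 0.71 in endothelial cells (-0.11).

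Of 13 laminin receptor genes, 12 were tested. Keratinocytes had 7 higher (16.5% of all genes tested) and 3 lower (18.3%), with the syndecan Sdc1 at 286, 462 and 522 CPM and the integrin chain Itga3, a laminin-332 receptor subunit, at 32.1, 67.7 and 47.0 CPM. Schwann cells had 7 higher (12.1%) and 1 lower (9.73%), among them Itga7 at 60.5, 63.4 and 54.2 CPM and Itgb4 at 119.9, 161 and 174 CPM. Mural cells had 5 higher (12.4%) and 1 lower (7.32%), with Itga7, known from muscle, at 214, 197 and 203 CPM and Bcam, which binds Lama5, at 174, 389 and 671 CPM. Endothelial cells had 2 higher (13.1%) and 4 lower (10%). Fibroblasts had 0 higher (15.1%) in edgeR, also 0 at an unadjusted p under 0.05, and 6 lower (4.93%), with Itga6 at 14.3, 3.72 and 3.27 CPM and Itgb4 at no more than 3.20 CPM. The median log2 difference of the receptors was 1.92 in keratinocytes (0.06 over all genes tested), 1.59 in Schwann cells (-0.06), 1.02 in mural cells (-0.08), -0.17 in endothelial cells (-0.11) and -1.76 in fibroblasts (0.09). Of the hemidesmosome linkers, Dst was called higher in Schwann cells (1.21 ± 0.24 on the log2 scale, adjusted p = 0.00270) and lower in fibroblasts (-1.47 ± 0.28, adjusted p = 0.00184), and Plec was called in no class. The netrin Ntn4, which binds laminin gamma chains, was called higher in mural cells, with 7.81, 51.0 and 88.3 CPM. Of the other laminin genes, Lama1 had at most 0.686 CPM in any class and was not tested, and Lamc3 was called higher in fibroblasts, with 26.0, 29.4 and 48.6 CPM, and in mural cells, with 12.5, 20.4 and 18.4 CPM.

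The genes whose levels over the 15 class profiles were most like a member's were taken by Pearson's r of log2(CPM + 1) among 11921 genes, as a description over profiles that share libraries. They were Limk1 for Lama2 (0.956), Hal for Lama3 (0.926), Rab13 for Lama4 (0.969), Aldoa for Lama5 (0.962) and Fscn1 for Lamb1 (0.958). For the others they were Ehbp1l1 for Lamb2 (0.939), Trim29 for Lamb3 (0.973), Adam19 for Lamc1 (0.947) and Ddah2 for Nid1 (0.965). Another member was the closest gene of none of the 9.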

How the data were processed

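The deposited values were UMI counts per gene and barcode in 3 matrices, 1 per age, used as the authors deposited them. Per the submitters' processing notes, the tools were Cell Ranger 3.0.2 and Seurat 2.0, on mm10. Per the labels' protocols the libraries came from a Chromium 3' kit. Barcodes with at least 300 genes and 500 UMIs and at most 10% mitochondrial UMIs were kept. A gate asked for a minimum number of markers at 2 or more UMIs, 5 of 12 for keratinocytes, 4 of 10 for endothelial cells, 5 of 12 for mural cells, 4 of 12 for Schwann cells, 5 of 7 for fibroblasts and 3 of 9 for leukocytes, and these minimums were set after counts had been seen. A sub-gate needed 2 of its markers and more than any other sub-gate of the class. Doublets were not removed, apart from barcodes of several gates. An alternative left out Scrublet doublets. Its own threshold failed in the neonatal library (0.0253% of barcodes), where the top 475 scores were removed instead.

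Class sums were tested with edgeR 4.0.16 (R 4.3.3, TMM scaling, library as a term) and, as an alternative, DESeq2 1.42.0. The same libraries gave all 5 classes, so the library term is the pairing block. Python 3.11.15 and scanpy 1.11.5 were used. The class test was checked on simulated data. The genes and lists were chosen with earlier results of these data known. All 9 members are named, and of each list genes called in a class, at most the 4 with the largest fold per class, with Nid2 in any case. Of the listed genes, 1 is not reported here. Plec and Lama1, which were not called, were named to complete their lists. Other annotated genes overlap Lamb3, Lama2, Lamc1, Nid1, Lama3 and Lama5, and strand use in counting is not given in the sources used here. Intervals cover counting error only. A count of 0 was given a limit of 3 counts.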

Additional observations from a re-analysis of the deposited data

Results flagged for a closer look

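Lamb3 was seen in leukocyte-gated cells, which lie outside the 5 classes compared. Its level there was 19.8 CPM at 3 weeks (49 UMIs) and 42.4 CPM at 2 months (143 UMIs), above the limit that a count of 0 allows, beside 3.12 CPM in the neonatal library (7 UMIs). At 3 weeks, leukocytes with Cd3e and no Tyrobp, 176 barcodes, had 58.9 CPM, and those with Tyrobp and no Cd3e, 236 barcodes, had 2.82 CPM. At 2 months the values were 86.1 CPM in 451 barcodes with Cd3e alone and 12.4 CPM in 292 with Tyrobp alone. Leukocytes held all 12 keratinocyte markers, at a summed 92.3, 510.1 and 349 CPM with age. Their Krt14 was 0.296% and 0.535% of the keratinocyte level at 3 weeks and 2 months, while their Lamb3 was 16.8% and 52.4% of it. Lama3 was at 0 and 1.19 CPM in the same cells. In the annotation 4930570N18Rik and Gm37691 overlap Lamb3 on the same strand, and Hsd11b1, Gm38118, G0s2 and Gm37650 on the opposite strand. The part of other cells, of free RNA or of overlapping genes in these values was not tested.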

How the results depend on the processing

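The number of members called higher in endothelial cells was 2, and 1 without the filter on low counts, 1 without the replicate block, and 1 to 3 when 1 library was left out. The endothelial Nid1 call was also lost with 1 more marker in each gate. In Schwann cells the number called higher was 3, and 1 to 3 with 1 library left out. In fibroblasts it was 4, and 2 without TMM scaling and 2 to 5 with 1 library left out. In keratinocytes it was 3, and 2 with any 1 library left out. The keratinocyte Lama5 call was also lost with 1 marker fewer in each gate. In mural cells the number called higher was 2 under all alternatives run. Without the replicate block the counts were 2 in keratinocytes, 1 in endothelial cells, 2 in mural cells, 3 in Schwann cells and 3 in fibroblasts. The share of Lamb1 in fibroblasts at 2 months was 16.5%, and 15.7% with 1 marker more and 17.3% with 1 marker fewer in each gate. Between 2 months and neonatal, Lama4 in mural cells had a log2 ratio of -1.15, and 0.79 in the smooth muscle sub-gate alone, an alternative chosen after seeing the data. The cause of these differences was not tested. The number of member and class pairs past 2-fold between these libraries was 19, and 19 to 20 under the alternatives. When CPM was averaged over single cells, 12 ratios lay outside their main counting interval and 21 inside. From 5 to 8 of 34 lay outside under TMM scaling, another gate minimum or a mitochondrial limit of 5%. None of the 34 did without Scrublet doublets. In basal cells alone 6 lay outside and 1 inside, and in fibroblasts of no sub-gate 6 lay outside. In smooth muscle cells 2 did besides Lama4, and 4 did not. All 7 stayed inside in lymphatic and in myelinating cells. With 1 library per age, depth sets the counting error only, and the endothelial values rest on 34, 76 and 35 barcodes.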
